A study of Homo sapiens with 4 samples.

Results

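The SLC2A genes encode the GLUT family of sugar transporters, and their mRNA was compared here between a kidney cancer line without VHL and the same line with VHL restored. The members were the genes of the deposited count table whose symbol is on a list of 9 SLC2A names (SLC2A1, SLC2A3, SLC2A4RG, SLC2A6, SLC2A8, SLC2A10, SLC2A11, SLC2A12 and SLC2A13). A row with counts was found for 7 of these, among 12912 genes in all. SLC2A6 and SLC2A11 were not analysed here. 786-O is an established clear cell renal cell carcinoma (ccRCC) line that lacks functional VHL, the substrate-binding subunit of an E3 ubiquitin ligase that marks HIFα proteins for degradation. 786-O-Ctrl carries the genotype label "Wild type(VHL-null)", and 786-O-VHL, labelled "VHL restoration", received a retroviral vector for HA-tagged VHL. Both sublines are the triple-reporter versions (786-OTR), which carry GFP, luciferase and thymidine kinase from a retroviral vector, and both grew in RPMI1640 medium with serum and antibiotics. RNA-seq was done on 2 libraries of each group, all of a group from 1 subline, and nothing in the sources says that they came from separate cultures. The p-values therefore measure only the spread between these libraries, which may be technical, and the comparison is between these sublines.

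GLUT proteins move sugars and related small molecules down their gradient across membranes through a bundle of membrane-spanning helices, and in tumor cells they help set how fast glucose can enter glycolysis. GLUT1 (SLC2A1) and GLUT3 (SLC2A3) serve basal glucose uptake at the cell surface, while GLUT8 (SLC2A8) and GLUT10 (SLC2A10) are found mostly on inner membranes. GLUT12 (SLC2A12) can respond to insulin, and HMIT (SLC2A13) is a proton-coupled carrier of myo-inositol rather than of glucose. SLC2A4RG belongs here by name alone. It encodes a zinc finger protein that binds the SLC2A4 promoter, and it is no transporter. SLC2A1 is a textbook HIF target gene.

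The stretch of 250 bases before the annotated transcription start is shown for the member that fell most (SLC2A1), the other transporter that fell (SLC2A10), and the member transporters that rose most (SLC2A12 and SLC2A8), since the groups differ in the mRNA of these genes. The sequences are RefSeq's on GRCh38.p14, written 5′ to 3′ on the strand of the gene, at chr1:42958869-42959118 on the minus strand for SLC2A1, chr20:46709399-46709648 on the plus strand for SLC2A10, chr6:134052625-134052874 on the minus strand for SLC2A12 and chr9:127396919-127397168 on the plus strand for SLC2A8. Capitals mark matches on either strand to the motifs searched. These were the core that HIF binds, spelled ACGTG or, in its other form, GCGTG. They were also the E-box CACGTG, which contains the HIF core, the GC box of the SP factors, spelled GGGCGG, and the TATA box in its form TATAAA.
SLC2A1: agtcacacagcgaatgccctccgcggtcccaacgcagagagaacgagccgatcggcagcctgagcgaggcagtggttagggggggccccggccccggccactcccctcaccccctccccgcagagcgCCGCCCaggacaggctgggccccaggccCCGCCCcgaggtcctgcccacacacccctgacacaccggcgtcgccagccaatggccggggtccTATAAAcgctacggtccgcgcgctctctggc
SLC2A10: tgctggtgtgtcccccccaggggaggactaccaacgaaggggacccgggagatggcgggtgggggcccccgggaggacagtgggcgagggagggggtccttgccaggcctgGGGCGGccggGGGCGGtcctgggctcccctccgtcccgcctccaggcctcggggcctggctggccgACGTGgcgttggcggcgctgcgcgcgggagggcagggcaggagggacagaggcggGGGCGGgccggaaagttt
SLC2A12: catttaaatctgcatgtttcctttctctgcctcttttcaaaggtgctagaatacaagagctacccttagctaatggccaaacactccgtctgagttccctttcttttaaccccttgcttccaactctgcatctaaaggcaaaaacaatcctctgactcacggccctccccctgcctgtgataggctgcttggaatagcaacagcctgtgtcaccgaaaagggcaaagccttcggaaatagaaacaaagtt
SLC2A8: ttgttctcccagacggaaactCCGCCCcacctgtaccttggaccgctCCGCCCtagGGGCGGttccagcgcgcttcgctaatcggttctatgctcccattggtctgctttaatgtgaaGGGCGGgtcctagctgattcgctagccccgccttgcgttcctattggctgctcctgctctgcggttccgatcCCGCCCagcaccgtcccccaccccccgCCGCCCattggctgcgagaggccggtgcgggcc
The SLC2A1 window held 2 GC boxes and a TATAAA that begins 31 bases before the start, but neither form of the HIF core. A GCGTG, the other form of that core, begins 26 bases after the SLC2A1 start and so lies outside the stretch shown. SLC2A10 held a HIF core of the first form that begins 73 bases before the start, with 3 GC boxes. SLC2A8 held 6 GC boxes. SLC2A12 held none of the motifs searched, and at 46.0% it was the least GC-rich of the 4, against a median of 58.0% over all windows. Of the 6 members with a row and a window, 2 held the HIF core in either form within these 250 bases (SLC2A10 and SLC2A13). So did 43.2% of all 35116 windows of this length. When the windows ran on past the start to 300 bases, SLC2A1 joined SLC2A10 and SLC2A13, and the share of all windows was 48.4%. The GC box was present in 5 of the 6 and in 42.6% of all windows, the TATA box in 1 of the 6 and in 10.7%, and the E-box in 1 of the 6 (SLC2A13) and in 6.34%. These matches describe letters in these windows, and no binding was measured.

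The 786-O-Ctrl libraries held 22141263 and 15714166 counts, and 786-O-VHL replicates 1 and 2 held 2807779 and 16114120. The 786-O-Ctrl columns share a replicate number, so these libraries are told apart as deeper and shallower, and the deeper is always given first. A total of 3 counts, which a count of 0 allows, corresponded to between 0.142 and 0.199 CPM (counts scaled to the size of the library, with TMM factors) in 3 of the libraries and to 1.02 CPM in 786-O-VHL replicate 1. Intervals from counts cover counting error only. VHL itself was at 42.9 and 43.9 CPM in 786-O-Ctrl and at 178 and 163 CPM in 786-O-VHL, a direction that matches the labels. The group labelled VHL-null thus still held VHL mRNA. The paper describes a frameshift mutation of VHL in 786-O and also calls the line one without VHL expression. Counts of a gene do not separate the vector's transcript from the endogenous one. All 10 kidney and renal carcinoma markers, PAX8 among them, had counts in every library, with a summed level of 3606 to 3628 CPM in 786-O-Ctrl and 2306 to 2469 CPM in 786-O-VHL. Of these 10, 6 were lower and 2 higher in 786-O-VHL, and VIM (1669 and 1699 CPM against 751 and 709 CPM) made up most of the drop. Of the leukocyte markers 1 of 5 had a row, of the endothelial markers 2 of 4, and none of these exceeded 1.02 CPM in any library. Of the fibroblast and pericyte markers 3 of 5 had a row and summed to 10.4 to 11.4 CPM in 786-O-Ctrl and 14.6 to 15.3 CPM in 786-O-VHL, and the part of this shift in the results was not tested. In bulk RNA, fewer cells of a type and less RNA per cell cannot be told apart.

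Of the 7 members, 3 were lower in 786-O-VHL (SLC2A1, SLC2A10 and SLC2A4RG), 3 were higher (SLC2A12, SLC2A8 and SLC2A3), and SLC2A13 did not pass the test, at an FDR under 0.05 by edgeR's quasi-likelihood test. All 7 had enough counts to be tested. Of all 12335 genes tested, 31.9% were called lower and 32.6% higher, so that 64.5% were called in either direction and the members' count of 6 of 7 is to be read against that share. The libraries of the groups did not overlap for 6 of the 7 members, against 80.0% of all genes tested. The median log2 fold change (786-O-VHL over 786-O-Ctrl) was 0.099 over the members and 0.017 over all genes. With 2 libraries against 2, a two-sided exact permutation test cannot go below p = 0.333, so the FDR values rest on the spread that edgeR shares between genes.

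**Figure D1:**
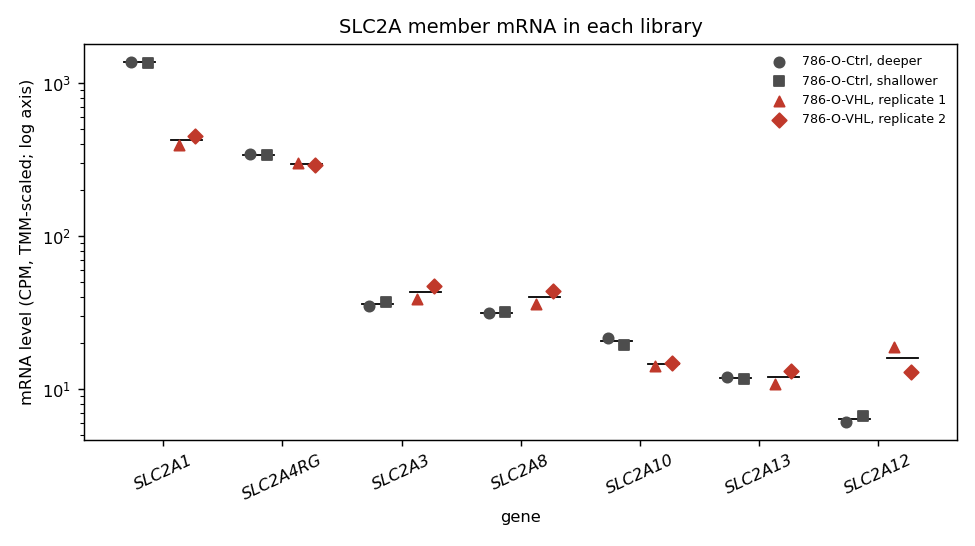
Level of each member in each library, as TMM-scaled CPM on a log axis, with 786-O-Ctrl in grey, 786-O-VHL in red and a line at the mean of the 2 libraries of a group. SLC2A1 stood at 1375 and 1358 CPM in 786-O-Ctrl and at 396 and 451 CPM in 786-O-VHL, and SLC2A13 is the member whose groups overlap; CPM is not corrected for gene length, so heights are to be compared between groups and not between genes.

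Among the transporters of basal glucose uptake, SLC2A1 was lower in 786-O-VHL by every analysis tried. The call of SLC2A3 as higher was lost under some of them. SLC2A1 (ENSG00000117394.22; chromosome 1 of GRCh37, 43391024 to 43424564, minus strand) was counted 28955 and 20440 times in 786-O-Ctrl, or 1375 and 1358 CPM, and 1168 and 7599 times in 786-O-VHL replicates 1 and 2, or 396 and 451 CPM. Both 786-O-VHL libraries were far below both control libraries, and the gap was many times the spread within either group. The log2 fold change was −1.68 with a standard error of 0.0656 (95% interval −1.81 to −1.54, edgeR FDR = 1.7e-18). Only 2.55% of the genes tested, 314 in number, had a fold change at or below this. Among 12749 genes ranked by CPM per kilobase of exon, SLC2A1 went from place 131 in 786-O-Ctrl to place 516 in 786-O-VHL, so it was still among the abundant mRNAs after restoration of VHL. A gene on the opposite strand, ENSG00000288955, covers 7.51% of its exonic bases.

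SLC2A3 encodes GLUT3, the transporter with high affinity for glucose that is best known from neurons. SLC2A3 (ENSG00000059804.16; chromosome 12, 8071826 to 8171603, minus strand) was at 35.2 and 37.4 CPM in 786-O-Ctrl and at 39.0 and 47.4 CPM in 786-O-VHL. The groups did not overlap, but replicate 1 of 786-O-VHL lay closer to the shallower 786-O-Ctrl library than to replicate 2. edgeR gave a log2 fold change of 0.32 with a standard error of 0.0950 (edgeR FDR = 0.00425). The call rested on replicate 2, since without it the value was 0.10 (FDR = 0.606), and DESeq2 did not make it (FDR = 0.147). SLC2A3 also has a near copy, SLC2A14, with which 269 of the 3728 windows of 100 bases in its transcript (7.22%) are identical. How reads in these windows were counted is not known here, so its level is uncertain to that extent. Other members shared no such window with another gene.

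Of the transporters found mostly on inner membranes, SLC2A8 was higher and SLC2A10 lower in 786-O-VHL. SLC2A8 (ENSG00000136856.17; chromosome 9, 130159417 to 130170703, plus strand), whose protein holds sorting signals that keep it inside the cell, was at 31.3 and 32.2 CPM in 786-O-Ctrl and at 36.3 and 44.0 CPM in 786-O-VHL. Both 786-O-VHL libraries were above both 786-O-Ctrl libraries, replicate 2 by more than replicate 1. SLC2A8 had a log2 fold change of 0.41 with a standard error of 0.0988 (edgeR FDR = 0.000742). Without 786-O-VHL replicate 2 it was 0.19 (FDR = 0.334), and by DESeq2 its FDR was 0.0553.

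SLC2A10 (ENSG00000197496.6; chromosome 20, 45338288 to 45364986, plus strand), whose loss causes arterial tortuosity syndrome, was at 21.7 and 19.6 CPM in 786-O-Ctrl and at 14.2 and 14.9 CPM in 786-O-VHL. Both 786-O-VHL libraries were below both 786-O-Ctrl libraries, although replicate 1 held only 42 counts, whose exact Poisson 95% interval is 10.3 to 19.3 CPM. The log2 fold change was −0.49 with a standard error of 0.133 (edgeR FDR = 0.00205). Without the deeper 786-O-Ctrl library it was −0.42 (FDR = 0.0717).

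SLC2A12, a transporter of insulin-sensitive tissues that has also been described in tumors, rose more than any other member. SLC2A12 (ENSG00000146411.5; chromosome 6, 134308719 to 134373762, minus strand) was counted 129 and 100 times in 786-O-Ctrl against 56 and 217 times in 786-O-VHL, or 6.13 and 6.65 CPM against 19.0 and 12.9 CPM. The groups did not overlap, and within 786-O-VHL the shallow replicate 1 was well above replicate 2. The log2 fold change was 1.18 with a standard error of 0.188 (95% interval 0.79 to 1.56, edgeR FDR = 3.64e-06), which is a fold of 2.26. Leaving out 786-O-VHL replicate 1 gave 1.02 and leaving out replicate 2 gave 1.57, both called. A fold at or above that of SLC2A12 was found in 964 genes, 7.82% of those tested. TBPL1 lies on the opposite strand and covers 51.2% of the exonic bases of SLC2A12, and whether counting used strand is not known here. If it did not, reads of the 2 genes cannot be told apart there. TBPL1 mRNA itself was at 21.2 and 22.5 CPM in 786-O-Ctrl and at 21.7 and 21.1 CPM in 786-O-VHL, with a log2 fold change of −0.035 (edgeR FDR = 0.811).

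SLC2A13 (ENSG00000151229.13; chromosome 12, 40148827 to 40499891, minus strand), the myo-inositol carrier, was at 12.0 and 11.7 CPM in 786-O-Ctrl and at 10.9 and 13.2 CPM in 786-O-VHL. The 786-O-VHL libraries lay on either side of both 786-O-Ctrl libraries. Its log2 fold change was 0.099 with a 95% interval of −0.22 to 0.42 (edgeR FDR = 0.596), so changes within that interval could not be told from none at this depth.

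SLC2A4RG (ENSG00000125520.14; chromosome 20, 62371129 to 62375403, plus strand), the zinc finger protein, was at 345 and 338 CPM in 786-O-Ctrl and at 300.2 and 294 CPM in 786-O-VHL. The groups were narrow and did not overlap, and the difference was small. Its log2 fold change was −0.20 with a standard error of 0.0616 (edgeR FDR = 0.0052), and when counts were scaled by library totals alone, which moves the median of all genes to 0.15, it was −0.069 (FDR = 0.325). ZBTB46 on the opposite strand covers 13.3% of its exonic bases. ZBTB46 was at 10.7 and 11.2 CPM in 786-O-Ctrl and at 18.0 and 18.9 CPM in 786-O-VHL, a change in the other direction (log2 fold change 0.77, edgeR FDR = 2.91e-05).

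**Figure D2:**
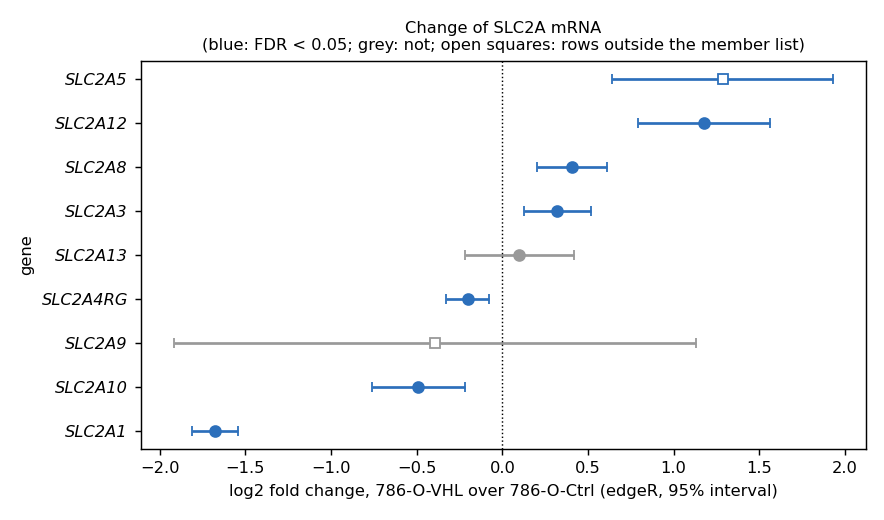
Log2 fold change, 786-O-VHL over 786-O-Ctrl, of the 7 members (filled circles) and of SLC2A5 and SLC2A9 (open squares; SLC2A2, at 3.67 on 3 counts in each 786-O-Ctrl library, is not drawn), with bars for edgeR's 95% interval, blue where the FDR is under 0.05 and grey where it is not. SLC2A1 at −1.68 and SLC2A12 at 1.18 stand at the ends of the members, and the intervals of SLC2A13 and SLC2A9 cross 0.

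The table also held 4 SLC2A genes that are not on the list of members, and their counts were low. SLC2A5, which encodes the fructose transporter GLUT5, was counted 36 and 24 times in 786-O-Ctrl against 11 and 70 times in 786-O-VHL, or 1.71 and 1.60 CPM against 3.73 and 4.16 CPM. Both 786-O-VHL libraries were above both 786-O-Ctrl libraries, with a log2 fold change of 1.29 and a standard error of 0.315 (edgeR FDR = 0.000783). SLC2A2, the low-affinity transporter GLUT2 of liver, islets and the proximal tubule, was counted 3 and 3 times in 786-O-Ctrl against 9 and 34 times in 786-O-VHL. Pooled over the libraries of a group, the rate of SLC2A2 was 13.1 times as high in 786-O-VHL, with an exact counting interval of 5.54 to 37.6, on 6 counts against 43. edgeR gave it a log2 fold change of 3.67 with a standard error of 0.575 (FDR = 2.75e-06), which rests on these few control counts. SLC2A9, the urate transporter, was counted 6 and 16 times against 4 and 5 times (edgeR FDR = 0.66). In CPM this was 0.285 and 1.06 against 1.36 and 0.297, so the groups overlapped. SLC2A4, which encodes the insulin-regulated GLUT4 whose promoter SLC2A4RG binds, was counted 11 and 7 times against 5 and 4 times. Its levels overlapped too, at 0.522 and 0.465 CPM in 786-O-Ctrl and at 1.70 and 0.238 CPM in 786-O-VHL. SLC2A4 had too few counts to be tested.

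Levels of different genes were compared per length, as CPM per kilobase of exon in a GRCh37 annotation. In 786-O-Ctrl the order ran from SLC2A1 at 207 ± 1.77 (SD, n = 2) over SLC2A4RG at 119 ± 1.60, SLC2A8 at 8.08 ± 0.148, SLC2A3 at 5.01 ± 0.217 and SLC2A10 at 4.27 ± 0.306 down to SLC2A13 at 1.18 ± 0.0224 and SLC2A12 at 1.15 ± 0.0660. The libraries of neighbors in this order did not overlap, other than those of SLC2A13 and SLC2A12. In 786-O-VHL the order began with SLC2A4RG at 103 ± 1.5 (SD, n = 2), ahead of SLC2A1 at 64.1 ± 5.88, SLC2A8 at 10.2 ± 1.39, SLC2A3 at 5.96 ± 0.817, SLC2A10 at 3.01 ± 0.0962, SLC2A12 at 2.86 ± 0.775 and SLC2A13 at 1.20 ± 0.168. Here the libraries of SLC2A10 and SLC2A12 overlapped, and those of the other neighbors did not. Some of these places depended on the length used. With the length of the canonical transcript in place of all exons the order of the means was the same, but the lead of SLC2A4RG over SLC2A1 in 786-O-VHL was gone, since their libraries overlapped at 127 and 125 against 117 and 133 CPM per kilobase. In 786-O-Ctrl the libraries of SLC2A12 then lay below those of SLC2A13, at 1.10 and 1.19 against 1.66 and 1.62. With either length, SLC2A1 had the highest level of the member transporters in both groups, and both 786-O-VHL libraries of SLC2A12 were above those of SLC2A13.

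The levels of the 6 transporters, without SLC2A4RG, were then summed. The sum was 228 and 225 CPM per kilobase in 786-O-Ctrl against 82.0 and 92.7 in 786-O-VHL, or 226 ± 1.67 against 87.3 ± 7.58 (SD, n = 2), so that 38.6% of the level remained. Without SLC2A1 the sum of the other 5 was 19.6 and 19.8 CPM per kilobase in 786-O-Ctrl against 22.1 and 24.5 in 786-O-VHL. The loss in the sum was thus a loss of SLC2A1, and the other 5 together were slightly higher. SLC2A1 made up 91.4% and 91.2% of the sum in 786-O-Ctrl against 73.1% and 73.6% in 786-O-VHL, a difference of −17.9 percentage points. None of these measures overlapped between the groups, and p was 0.333 in each by the two-sided exact permutation test, the smallest that 2 libraries against 2 can give.

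Each of the 5 other transporters took a larger share of the smaller sum, as any gene does that falls by less than the sum. A larger share is thus no sign of a higher level. SLC2A8 went from a mean of 3.57% to 11.7% of the sum, and SLC2A3 from 2.21% to 6.81%. SLC2A10, whose own level fell, still went from 1.89% to 3.46%. SLC2A12 went from 0.506% to 3.33% and SLC2A13 from 0.523% to 1.37%. The level of SLC2A1 per kilobase was 42.8 and 39.8 times that of SLC2A3 in 786-O-Ctrl against 11.1 and 10.4 times in 786-O-VHL. Against SLC2A12 the ratio was 189 and 172 in 786-O-Ctrl against 17.6 and 29.5 in 786-O-VHL.

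**Figure D3:**
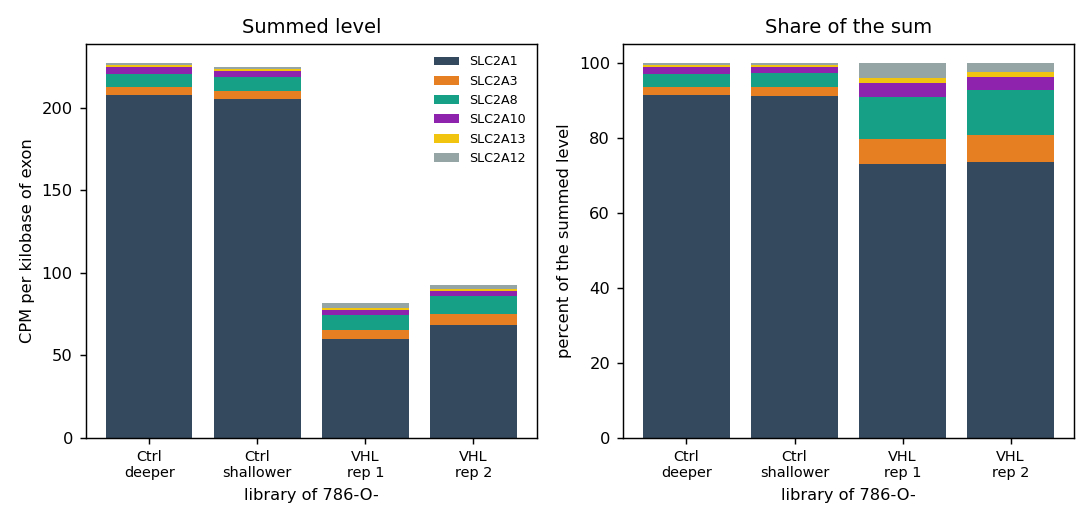
Summed level of the 6 transporters in each library, as CPM per kilobase of exon (left), and the share of each transporter in that sum, in percent (right). The SLC2A1 segment shrinks from 91.4% and 91.2% in 786-O-Ctrl to 73.1% and 73.6% in 786-O-VHL while the summed level falls from 226 to 87.3 CPM per kilobase on average.

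Of 26 genes that act on the surface level and trafficking of GLUT proteins, all tested, 7 (26.9%) were higher and 10 (38.5%) lower in 786-O-VHL. These shares were near the 32.6% and 31.9% of all genes called in these directions. The list had a median log2 fold change of −0.074 against 0.017 over all genes. TXNIP and ARRDC4, arrestin-like proteins that promote the internalization of GLUT1, had log2 fold changes of 4.35 and 2.42 (edgeR FDR = 4.1e-27 and 1.99e-16), and ARRDC4 went from 9.02 ± 0.539 to 49.3 ± 2.26 CPM (SD, n = 2). RAB10, a small GTPase of GLUT4 vesicles, was higher by 0.70. TBC1D4 (AS160), the GTPase-activating protein that holds GLUT4 vesicles back, had a log2 fold change of −0.95, from 45.8 ± 4.48 to 22.6 ± 3.20 CPM (SD, n = 2). RAB8A was at −0.79 and the motor protein gene MYO1C at −0.65, the latter from 679 ± 20.8 to 433 ± 6.85 CPM (SD, n = 2). All 6 passed an edgeR FDR of 0.05.

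Of 19 other carriers of sugars, polyols and ascorbate, 13 were tested, and 7 (53.8%) were higher and 2 (15.4%) lower, against 32.6% and 31.9% of all genes. Their median log2 fold change was 0.37, against 0.017 over all genes. SLC5A3, the sodium-dependent myo-inositol carrier SMIT, went from 53.5 ± 3.83 to 16.5 ± 0.206 CPM (SD, n = 2), a log2 fold change of −1.70 (edgeR FDR = 6.08e-14), while SLC2A13, the proton-coupled carrier of the same substrate, did not pass the test. SLC45A1 was at −1.48 (edgeR FDR = 6.05e-05). The ascorbate carrier SLC23A1 had a log2 fold change of 3.09, but its 786-O-Ctrl libraries were far apart, at 0.190 and 1.06 CPM (4 and 16 counts), against 4.41 and 4.99 CPM for 786-O-VHL. The renal glucose carrier SLC5A2 (SGLT2) had 1.78, from 0.712 and 0.731 CPM to 2.04 and 2.61 CPM. SLC37A1, a carrier of sugar phosphates, had 1.18. Of 7 genes of myo-inositol handling, 4 (57.1%) were higher and 1 (14.3%) lower, with a median of 0.51. Among the higher ones were MIOX, which opens the ring of myo-inositol (1.26), and the phosphatases INPP1 (0.99) and IMPA2 (0.65). The lower one was BPNT2 (−0.75), a phosphatase of the Golgi for which no action on myo-inositol was shown here.

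Of 19 first enzymes that act on imported sugars, 16 were tested, and 10 (62.5%) were lower and 3 (18.8%) higher, against 31.9% and 32.6% of all genes, with a median log2 fold change of −0.27. HK1, which phosphorylates glucose on entry, went from 296 ± 11.7 to 147 ± 13.7 CPM (SD, n = 2), a log2 fold change of −0.98 (edgeR FDR = 7.14e-13). GPI, the next enzyme of glycolysis, was at −0.82, and KHK, the fructose kinase, at −1.05 on about 1 to 2 CPM (edgeR FDR = 0.0386). HKDC1, a further hexokinase, went the other way, from 81.1 ± 1.85 to 405 ± 14.8 CPM (SD, n = 2), a log2 fold change of 2.33 (edgeR FDR = 2.4e-21). TKFC, which acts on triose and fructose intermediates, was at 0.98 and FCSK, the fucose kinase, at 0.40. Of 6 genes of lactate export, only 3 had a row in the count table, and these were tested. Of these, 1 (33.3%) was higher and 1 (33.3%) lower, against 32.6% and 31.9% of all genes, with a median of −0.32. SLC16A3 (MCT4) was at −0.78 (edgeR FDR = 4.82e-12) and its chaperone BSG at 0.18 (edgeR FDR = 0.00961).

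Of the factors known to act on SLC2A promoters, with the relatives of SLC2A4RG, 14 of 18 were tested, and 8 (57.1%) were higher and 3 (21.4%) lower, against 32.6% and 31.9% of all genes, with a median log2 fold change of 0.35. MYC was at 1.41, EPAS1 (HIF2α) at 1.37 and HIF1A at 1.35, and EPAS1 went from 324 ± 7.80 to 835 ± 30.3 CPM (SD, n = 2). These are mRNA levels, and the HIFα proteins, which VHL acts on, were not part of these counts. By Western blot the paper reports less HIF2α protein in 786-O after VHL was restored, and it states that 786-O lacks HIF1α expression. Higher EPAS1 or HIF1A mRNA is thus not to be read as more HIF protein. ZNF395, the zinc finger relative of SLC2A4RG, was at −1.30, from 126 ± 0.627 to 50.3 ± 2.52 CPM (SD, n = 2; edgeR FDR = 4.99e-15). SP3 was at −0.27 and MLXIP, a partner of MLX in glucose sensing, at −0.19.

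**Figure D4:**
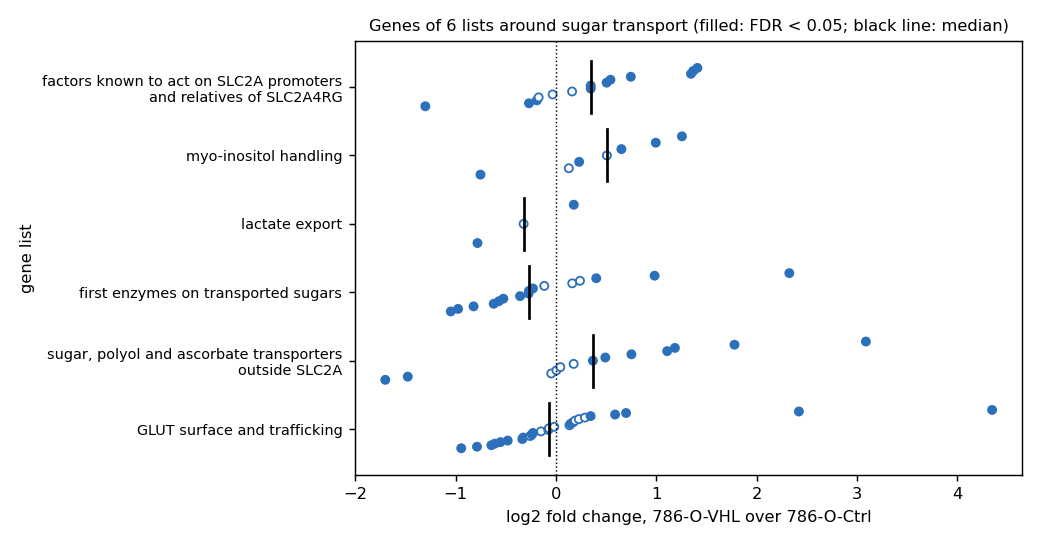
Log2 fold change, 786-O-VHL over 786-O-Ctrl, of each tested gene in 6 lists around sugar transport, with filled points at an edgeR FDR under 0.05 and a black line at the median of each list. The medians run from −0.32 for lactate export to 0.51 for myo-inositol handling, against 0.017 over all genes tested. Lactate export has only 3 tested genes, and its median is that of SLC16A7, which was not called (edgeR FDR = 0.278). TXNIP at 4.35 is the point farthest to the right.

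The genes whose pattern over the 4 libraries was most like that of a member were found by the root mean square difference of centred log2 CPM, among 9235 genes with a mean of at least 10 CPM. For SLC2A1 these were RRM1, a subunit of ribonucleotide reductase (0.0107), DOCK10, a guanine nucleotide exchange factor (0.0192), and the kinase gene PASK (0.0256), with log2 fold changes of −1.66, −1.69 and −1.73. For SLC2A12 they were HOXB3 (0.0565), TBC1D19 (0.0576) and ANKRD42 (0.0644), with log2 fold changes of 1.17, 1.11 and 1.08. The differences were larger for SLC2A12. With 4 libraries in 2 groups this likeness is a description of these libraries.

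**Figure D5:**
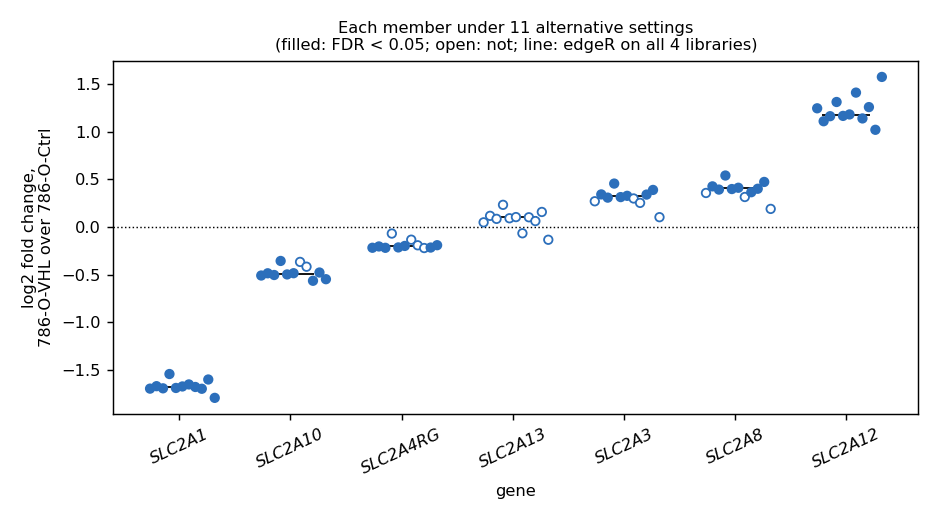
Log2 fold change of each member, 786-O-VHL over 786-O-Ctrl, under 11 alternative settings (points, filled where the FDR is under 0.05) around edgeR on all 4 libraries (line). SLC2A1 stays between −1.79 and −1.54 and SLC2A12 between 1.02 and 1.57 with every point filled, while each of SLC2A3, SLC2A8, SLC2A10 and SLC2A4RG has open points.

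SLC2A1 and SLC2A12 were called in the same direction under each of the 11 alternative settings, SLC2A1 between −1.79 and −1.54 and SLC2A12 between 1.02 and 1.57. The calls of SLC2A3, SLC2A4RG, SLC2A8 and SLC2A10 were lost under 4, 4, 3 and 2 of these, among them thinning of every library to the depth of the shallowest in each case. Their log2 fold changes kept their sign throughout, over a range of 0.10 to 0.45 for SLC2A3, −0.22 to −0.069 for SLC2A4RG, 0.19 to 0.54 for SLC2A8 and −0.56 to −0.36 for SLC2A10.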

How the data were processed

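Total RNA of 2 libraries per group was sequenced after a TruSeq preparation. Reads were aligned to hg19 by the authors, who deposited raw counts per gene as whole numbers. The submitters' processing notes name CASAVA and STAR. Not given in the sources used here were their versions, the counter, its strand setting and the gene models. Samples were grouped by their titles, and the columns of counts were assigned by their headers. The members and gene lists were chosen with earlier results of these data known.

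Genes were handled by Ensembl identifier, and 12749 of 12912 were found in a GRCh37 annotation (GENCODE lifted to that build), which gave coordinates and exon lengths. Promoter windows came from RefSeq on GRCh38.p14. Counts were analysed with edgeR 4.0.16 in R 4.3.3: filterByExpr at a minimum count of 10 (12335 genes), TMM, and the quasi-likelihood F test with group as the only term and Benjamini-Hochberg adjustment (FDR) over all genes tested. Standard errors follow from the F statistic. The biological coefficient of variation was 4.31%. The chi-square per degree of freedom between replicates was 2.22 for 786-O-Ctrl and 2.72 for 786-O-VHL, above the sampling noise. For likeness, 0.5 was added before log2.

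The alternatives were DESeq2 1.42.0 (the tool of the study), limma-voom (limma 3.58.1), RLE scaling, scaling by library totals, all genes without a filter, a minimum of 10 counts in each library, thinning to the shallowest library, and leaving out each library in turn. For the sum and share, CPM in place of CPM per kilobase and the sum without SLC2A3 were tried too, and canonical transcript length, the sum without SLC2A12 and the sum with SLC2A2, SLC2A4, SLC2A5 and SLC2A9 were added after seeing the data. The scripts were tested on simulated data. The genes named are the members, every other SLC2A gene in the table, VHL, at most 3 per list and direction with the largest change at an FDR under 0.05, and the 3 most alike to SLC2A1 and to SLC2A12. PAX8, VIM, TBPL1 and ZBTB46, the last 2 for their overlap with members, were named outside this rule.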

Additional observations from a re-analysis of the deposited data

How the results depend on the processing

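No paired analysis was possible because both 786-O-Ctrl columns carry the same replicate number. The number of members called lower, 3, was 1 after thinning and between 1 and 3 with a library left out, with 1 without the deeper 786-O-Ctrl library. The number called higher, 3, was 1 with DESeq2, 1 after thinning and between 1 and 3 with a library left out, with 1 without 786-O-VHL replicate 2. SLC2A13 turned to −0.067 (log2) after thinning and to −0.13 without 786-O-VHL replicate 2, within a range of −0.13 to 0.16 with a library left out, and passed the test in none of these. Lost calls beyond those in the report were SLC2A3 after thinning (FDR = 0.103) and without the deeper 786-O-Ctrl library (0.124), SLC2A8 after thinning (0.107), SLC2A10 after thinning (0.173), SLC2A4RG after thinning (0.135) and without the deeper (0.137) or the shallower (0.078) 786-O-Ctrl library, and SLC2A5 without 786-O-VHL replicate 2 (0.107). The cause was not tested. The share of SLC2A1 differed by −19.2 to −14.7 percentage points over its 11 alternatives, and the summed level was lower in 786-O-VHL under all of its 11. Over all genes, 3939 were called lower and 4017 higher by edgeR, 3147 and 2861 by DESeq2, 2837 and 2841 after thinning, and 3097 and 5077 with library totals alone. Depth limits SLC2A10, SLC2A13 and the SLC2A genes outside the list most, since 786-O-VHL replicate 1 held 42, 32 and at most 11 counts of them. With a library left out, the lone library of its group was assumed to vary like those of the other group.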
